A study of Mus musculus with 17 samples.

Results

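Control mouse embryonic stem (ES) cells were followed over their first 12 h in serum. The change was read from 5 of the 17 poly(A) RNA-seq libraries of the series, 2 control libraries at 0 h (replicates 2 and 3) and 3 control libraries at 12 h (replicates 1 to 3). It covered the 15117 genes, of 15470 listed, that reached 1 CPM (a gene's reads scaled to library size by the TMM method) in at least 3 of the 17 libraries. The control line is E14Tg2a, labelled wild type, and it is the parental line of the *Nanog* KO line BT12 used in the other arm of the series. At 0 h both lines grew in knockout serum replacement with LIF and 2i, the inhibitors CHIR-99021 and PD0325901, over inactivated mouse embryonic fibroblasts. For 12 h or 24 h samples the cells were moved from 2i/LIF to serum. Each genotype is 1 line, and no label tells whether the replicates are independent cultures. The p-values therefore speak only of the spread within groups, pooled over all 17 libraries, which may be technical. No library was kept in 2i/LIF until 12 h. Loss of LIF, loss of each inhibitor, the change from knockout serum replacement to serum and time in culture cannot be told apart.

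As background, PD0325901 blocks MEK, the kinase that activates ERK downstream of FGF, and CHIR-99021 blocks GSK3, which mimics Wnt by stabilising beta-catenin. LIF acts through its receptor and JAK to activate STAT3. Together these hold ES cells in a naive state that resembles the epiblast of the early blastocyst, and their removal lets the cells pass through a formative state towards priming for germ layer fates. Serum brings growth factors, BMP activity, lipoprotein cholesterol and retinoids, which the serum-free medium supplies in other amounts or not at all.

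Reads assigned to genes numbered 14788394 and 25268261 in the 0 h libraries and 33766086, 11715137 and 8775372 in the 12 h libraries. In these libraries 3 reads corresponded to between 0.0851 and 0.326 CPM. The 2 libraries at 0 h differed from each other by 12.0 times the squared deviation that counting alone gives, and pairs of 12 h libraries by 3.20 to 3.37 times. *Pou5f1*, *Sox2*, *Sall4*, *Zfp42* and *Esrrb*, which mark ES cells, were at 246 CPM or more in each of the 5 libraries. The library values were bulk values, so a smaller share of cells of one kind and less RNA per cell cannot be told apart.

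At an adjusted p under 0.05 in limma's test, 3419 genes were higher at 12 h (22.6% of those tested) and 3699 were lower (24.5%), while 7999 passed in neither direction. Most changes were small. The median size among called genes was 0.47 on the log2 scale, 301 called genes rose at least 2-fold and 440 fell at least 2-fold, and 17 rose and 53 fell at least 4-fold. The 12 h libraries lay wholly above the 0 h libraries for 30.7% of tested genes and wholly below for 32.3%. Of the 3419 genes called higher, 3211 still had a higher mean at 24 h than at 0 h. Picking the genes against these same 0 h libraries makes that likely, and the share over all tested genes was not counted. The median log2 fold change over all tested genes was -0.01. Every log2 fold change below is 12 h over 0 h in control cells on the log2(CPM + 1) scale unless another contrast is named, is given with ± its standard error, and has a p-value adjusted over all tested genes by the Benjamini-Hochberg method. The shares of 22.6% and 24.5% are the background for every count of list members that follows.

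**Figure D1:**
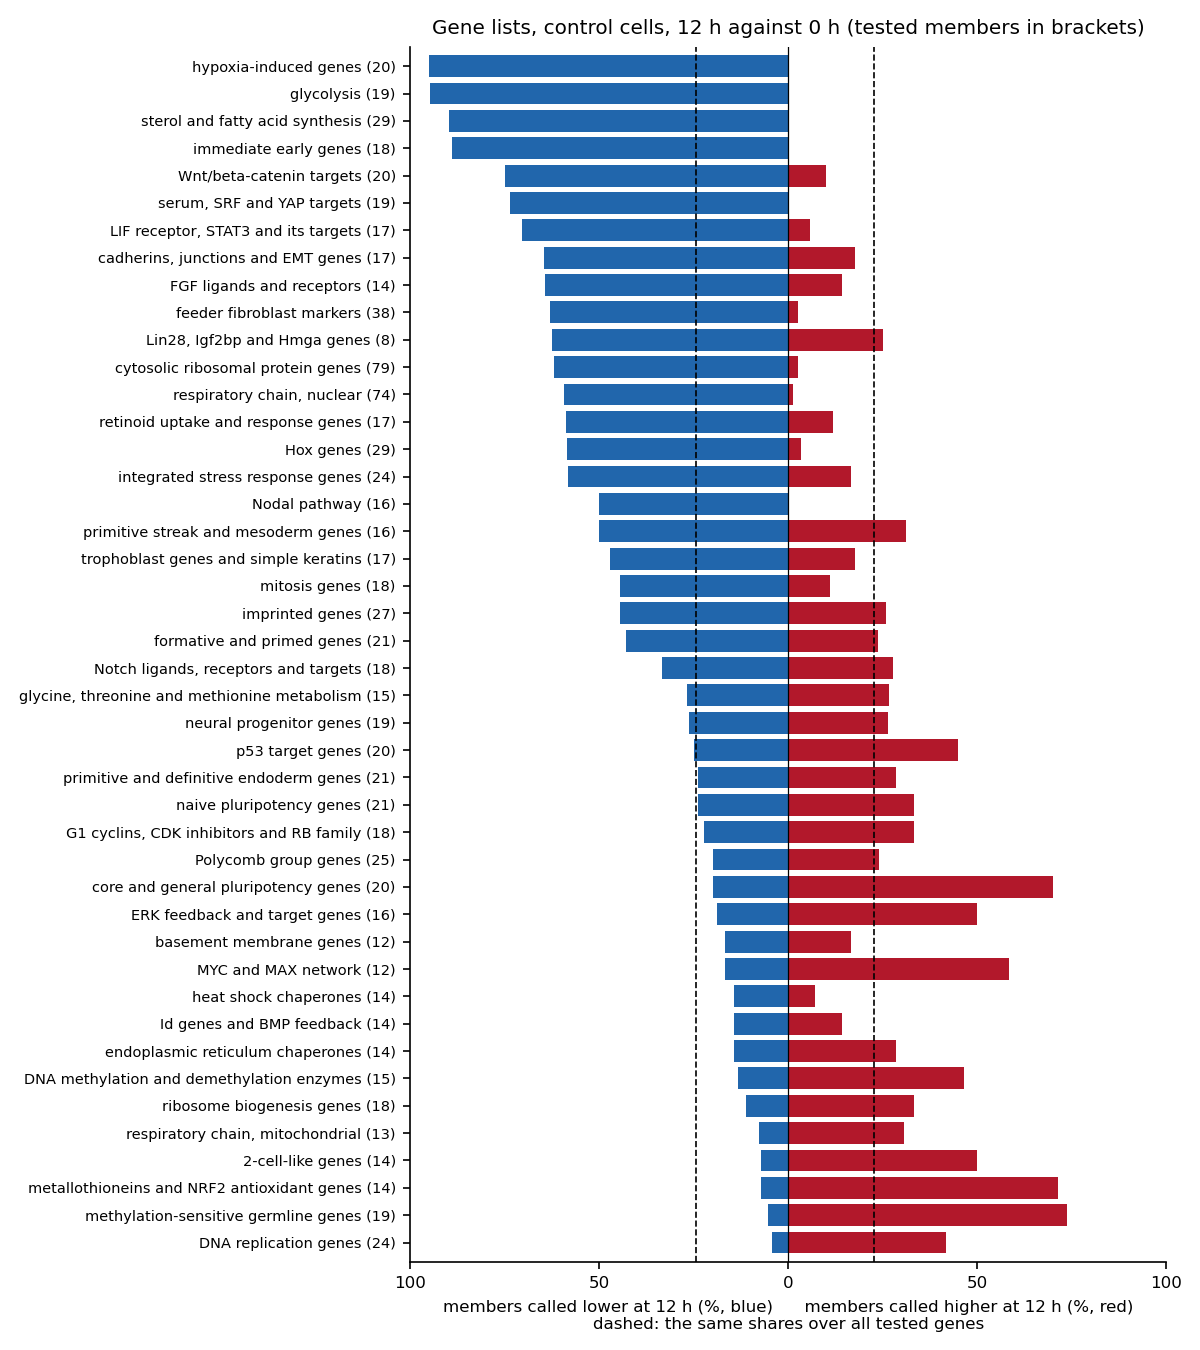
Share of the tested members of each of the 44 gene lists called higher (red, to the right) or lower (blue, to the left) at 12 h in control cells, in percent of tested members, whose number is in brackets. Dashed lines give the shares over all tested genes, 22.6% higher and 24.5% lower. The bars for hypoxia-induced genes, glycolysis, sterol synthesis and immediate early genes reach furthest to the left, and those for germline genes and metallothionein and NRF2 antioxidant genes furthest to the right.

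Immediate early genes, which encode short-lived transcription factors and regulators switched on within minutes of a growth factor signal, fell as a group. Of 18 tested members 16 were called lower and 0 higher, with a median log2 fold change of -1.51. *Fos*, a subunit of the AP-1 factor, stood at 172 and 165 CPM at 0 h and 3.32, 2.94 and 3.69 CPM at 12 h. Its mean fell 50.8-fold (log2 fold change -5.30 ± 0.13, adjusted p = 1.31e-15), the largest fall of any gene that met the naming rule. *Egr1*, a zinc finger factor under ERK and SRF control, stood at 231 and 276 CPM at 0 h and 10.3, 8.81 and 8.15 CPM at 12 h, a 27.8-fold fall (log2 fold change -4.65 ± 0.10, adjusted p = 3.88e-16). *Fosb* stood at 67.1 and 82.4 CPM at 0 h and 2.21, 2.94 and 1.74 CPM at 12 h (log2 fold change -4.53 ± 0.16, adjusted p = 2.53e-13). In all 3 genes every 12 h library lay far below both 0 h libraries. The partners *Jun* (-1.56) and *Junb* (-1.52), the stress factor *Atf3* (-1.98), *Ier3* (-1.78) and *Zfp36*, which encodes an mRNA decay factor (-1.76), fell less. *Fosl1* and the orphan receptor gene *Nr4a1* did not pass, at 0.17 and -0.12. In Nanog KO cells, whose 0 h and 12 h libraries are all different from the control ones, 13 of these genes were called lower and 0 higher.

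The genes that ERK signalling induces as its own feedback did not follow the immediate early genes. Of 16 tested members of the ERK list 8 were called higher and 3 lower. *Spry4*, an inhibitor of the pathway, rose from 22.6 and 26.1 CPM at 0 h to 72.2, 75.6 and 74.0 CPM at 12 h, or 3.04-fold (log2 fold change 1.57 ± 0.07, adjusted p = 3.92e-12). *Etv4*, an ETS factor induced by FGF, stood at 50.6 and 51.4 CPM at 0 h and 109, 116 and 115 CPM at 12 h (log2 fold change 1.13 ± 0.08, adjusted p = 1.49e-09), and *Etv1* rose by 1.09. The MAP kinase phosphatase gene *Dusp4* rose by 0.94 and *Dusp6*, whose product acts on ERK, stood at 81.2 and 89.6 CPM at 0 h and 124, 127 and 122 CPM at 12 h (log2 fold change 0.54 ± 0.05, adjusted p = 5.91e-08). The libraries of each time did not overlap for *Spry4*, *Etv4* or *Dusp6*. The 3 members that were lower were *Egr1* and *Ier3*, which the immediate early list also holds, and *Dusp5* (-0.58). *Spred1*, *Spred2* and *Il17rd*, further inhibitors, did not pass, at -0.06, -0.06 and -0.05. The ETS core CCGGAAG was found, on either strand, in 0 of the 12 RefSeq promoters of this list (250 bases before to 50 after a gene start) against 8.86% of all 32851 mouse promoters of that length and 16% of those of tested genes.

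Targets of LIF signalling fell. Of 17 tested members 12 were called lower and 1 higher, with a median of -0.47. *Socs3*, the inhibitor that STAT3 induces against its own pathway, stood at 90.3 and 100.4 CPM at 0 h and 22.2, 24.8 and 19.99 CPM at 12 h (log2 fold change -2.05 ± 0.11, adjusted p = 5.33e-11). *Bcl3*, another STAT3 target, stood at 65.0 and 84.3 CPM at 0 h and 12.5, 16.5 and 14.6 CPM at 12 h (log2 fold change -2.28 ± 0.14, adjusted p = 6.54e-10). Neither gene had a 12 h library near its 0 h libraries. *Stat3* itself fell by 0.83 and *Osmr*, a receptor chain of the same cytokine family, by 1.36. The STAT3-dependent factors *Klf4* and *Klf5* had log2 fold changes of -0.81 and -0.77, while *Tfcp2l1*, which LIF also sustains, stood at 152 and 193 CPM at 0 h and 174, 166 and 164 CPM at 12 h and did not pass (log2 fold change -0.03 ± 0.09, adjusted p = 0.819). The receptor gene *Lifr* was the member called higher (23.8 and 24.5 CPM at 0 h and 50.8, 47.9 and 44.9 CPM at 12 h, log2 fold change 0.96 ± 0.09, adjusted p = 1.19e-07).

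Most Wnt/beta-catenin targets fell, the direct target *Sp5* most. Of 20 tested members 15 were called lower and 2 higher, with a median of -0.75. The TCF/LEF core CTTTGA was present on either strand in 5 of the 19 promoters of the list (26.3%), those of *Dkk1*, *Lef1*, *Sp5*, *T* and *Tnfrsf19*, against 16% of all promoters and 11.6% of the 13634 promoters of tested genes. The stretches that carry it in *Sp5* and *T*, the 2 members with the largest falls among those 5, are shown for their motif, which is in capitals and reads TCAAAG where it lies on the other strand. They come from RefSeq, build GRCm38.p6, at chr2:70474679-70474864 (+) and chr17:8434173-8434234 (+).
Sp5: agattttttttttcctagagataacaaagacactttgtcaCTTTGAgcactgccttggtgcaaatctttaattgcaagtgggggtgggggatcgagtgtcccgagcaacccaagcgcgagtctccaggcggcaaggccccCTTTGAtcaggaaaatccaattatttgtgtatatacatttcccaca
T: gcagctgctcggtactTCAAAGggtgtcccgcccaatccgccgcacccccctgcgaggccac

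A match to the motif is a description of these letters and not a shown site of binding. *Sp5*, a zinc finger factor, stood at 43.1 and 64.8 CPM at 0 h and 4.74, 5.46 and 3.59 CPM at 12 h (log2 fold change -3.28 ± 0.21, adjusted p = 7.99e-10). *T*, the mesoderm factor Brachyury, stood at 59.5 and 62.5 CPM at 0 h and 8.03, 10.3 and 7.39 CPM at 12 h (log2 fold change -2.71 ± 0.18, adjusted p = 1.51e-09). The 0 h libraries lay above all 12 h libraries for both, and the 2 values of *Sp5* at 0 h were further apart than those of *T*. *Axin2*, the feedback inhibitor that reports Wnt activity in most tissues, stood at 37.6 and 41.2 CPM at 0 h and 22.3, 22.3 and 21.8 CPM at 12 h (log2 fold change -0.80 ± 0.08, adjusted p = 4.29e-07), a much smaller fall. The caudal homeobox genes *Cdx1* (-2.52) and *Cdx2* (-1.57) and the growth factor gene *Fgf8* (-2.71) fell, as did *Rnf43*, a ligase that removes Wnt receptors (-1.15), and *Tcf7* (-0.78). *Apcdd1* (0.92) and *Notum* (0.49), both of which encode Wnt inhibitors, were the members called higher. *Lgr5*, *Dkk1* and *Znrf3* did not pass, at -0.01, -0.03 and 0.11. *Lef1* was called lower (log2 fold change -0.38 ± 0.11, adjusted p = 0.00708), and without the 0 h replicate 3 library it no longer was.

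Nodal feedback genes fell without a fall of *Nodal*. *Nodal*, the ligand, stood at 72.3 and 65.0 CPM at 0 h and 69.8, 74.8 and 75.8 CPM at 12 h and did not pass (log2 fold change 0.10 ± 0.07, adjusted p = 0.255), whereas *Lefty1*, its secreted inhibitor and target, stood at 239 and 221 CPM at 0 h and 69.5, 78.8 and 76.3 CPM at 12 h (log2 fold change -1.61 ± 0.14, adjusted p = 5.91e-08). *Lefty2* (-0.89) and the co-receptor gene *Tdgf1* (-0.80) also fell. Of 16 tested members 8 were called lower and 0 higher. The targets of BMP signalling stayed near their 0 h values. *Id1*, the most direct of them, stood at 34.3 and 30.4 CPM at 0 h and 29.6, 37.9 and 28.7 CPM at 12 h (log2 fold change -0.02 ± 0.13, adjusted p = 0.906), and *Id2* and *Id3* had log2 fold changes of -0.01 and 0.11, none of which passed. Of the 14 tested members of that list 2 were higher, *Bmp4* (0.74) and the receptor gene *Bmpr2* (0.56), and 2 lower, *Bmpr1a* (-0.37) and the antagonist gene *Nog* (-0.71), which was not called without 0 h replicate 3.

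**Figure D2:**
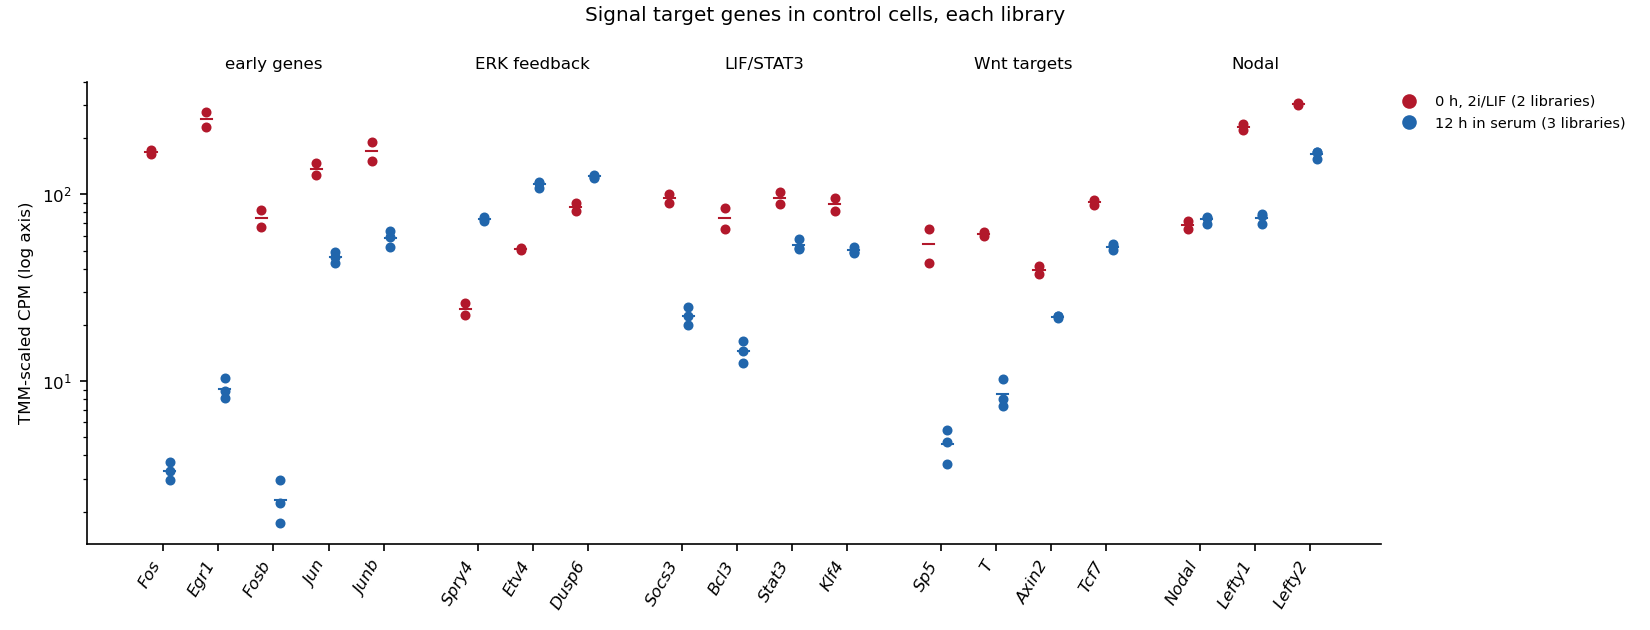
Values of signal target genes in each control library, in TMM-scaled CPM on a log axis. Points are single libraries at 0 h (red, 2) and 12 h (blue, 3), and short lines are group means. *Fos* fell from a mean of 168 to 3.32 CPM and *Spry4* rose from 24.3 to 73.9 CPM, and for every gene drawn except *Nodal* the points of the groups do not overlap.

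Genes of the actin cytoskeleton and of SRF and YAP, which serum induces in starved fibroblasts, fell. Of 19 tested members 14 were called lower and 0 higher, with a median of -0.48. *Cyr61*, a matricellular YAP target, stood at 235 and 238 CPM at 0 h and 84.9, 72.0 and 83.3 CPM at 12 h (log2 fold change -1.55 ± 0.09, adjusted p = 1.65e-10). *Tagln*, a smooth muscle actin-binding protein gene, fell by 1.46, *Cnn1* by 1.76 and *Ankrd1* by 1.22. *Actb* and *Srf* did not pass, at -0.08 and -0.22. Several of these genes are abundant in fibroblasts, and the culture held feeder fibroblasts. Of 38 tested feeder markers (of 41 listed) 24 were called lower and 1 higher (17 and 3 without 0 h replicate 3), and the summed level of the 38 was 2673 and 2939 CPM at 0 h and 2050, 2040 and 1956 CPM at 12 h, so these groups did not overlap. Among the defining collagens, *Col1a1* stood at 535 and 656 CPM at 0 h and 499.7, 519 and 477 CPM at 12 h and did not pass (log2 fold change -0.25 ± 0.13, adjusted p = 0.116), *Col3a1* did not pass either (log2 fold change -0.04 ± 0.13, adjusted p = 0.846), and *Col1a2* was called higher (log2 fold change 0.50 ± 0.11, adjusted p = 0.00149). No tested marker had a mean of 0 at either time, and *Thy1* (-1.52), *Timp3* (-1.89), *Ptx3* (-2.01) and *Ccl2* (-2.70) fell. What part feeder cells have in the fall of the SRF and YAP targets, of the extracellular matrix genes or of any other gene below was not tested.

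The naive pluripotency network did not move as a block. *Nanog*, the gene targeted in the other arm of the series, stood at 412 and 411 CPM at 0 h and 411, 388 and 384 CPM at 12 h and did not pass (log2 fold change -0.06 ± 0.09, adjusted p = 0.601). In the libraries labelled Nanog KO it was still read, at 31.7, 34.6 and 32.1 CPM at 0 h and 27.5, 25.9 and 22.5 CPM at 12 h, all far below the control libraries. Of 21 tested naive genes 7 were called higher and 5 lower, with a median of 0.02, close to the backgrounds of 22.6% and 24.5%. *Esrrb*, an orphan receptor downstream of GSK3 inhibition, stood at 332 and 352 CPM at 0 h and 351, 352 and 334 CPM at 12 h (log2 fold change 0.02 ± 0.06, adjusted p = 0.839), and *Tbx3* had a log2 fold change of -0.02, neither passing. The factors that fell were *Klf4*, *Klf5*, *Klf2* (159 and 225 CPM at 0 h and 111, 121 and 107 CPM at 12 h, log2 fold change -0.74 ± 0.10, adjusted p = 1.04e-05), *Prdm14* (28.0 and 26.5 CPM at 0 h and 16.3, 16.4 and 16.5 CPM at 12 h, log2 fold change -0.70 ± 0.16, adjusted p = 0.00167) and *Gbx2* (-0.44), the last not without 0 h replicate 3. For *Klf2* and *Prdm14* each 12 h library lay under each 0 h library. Those that rose included *Nr0b1*, a nuclear receptor that binds OCT4, which stood at 44.7 and 42.9 CPM at 0 h and 131, 129 and 128 CPM at 12 h (log2 fold change 1.54 ± 0.10, adjusted p = 5.29e-10), *Pecam1*, an adhesion molecule of naive cells (log2 fold change 1.23 ± 0.06, adjusted p = 1.21e-11), and *Zfp57*, which guards imprints (0.74). At 24 h the mean of *Nanog* was 299 CPM, that of *Esrrb* 237 CPM and that of *Tbx3* 45.9 CPM, each under all 5 earlier libraries of that gene.

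Core pluripotency genes rose more often than they fell, 14 of 20 tested against 4, with a median of 0.43. *Pou5f1*, which encodes OCT4, stood at 735 and 649.8 CPM at 0 h and 977, 982 and 947 CPM at 12 h (log2 fold change 0.49 ± 0.10, adjusted p = 0.000404). *Sox2*, its partner, stood at 347 and 363 CPM at 0 h and 395, 401 and 381 CPM at 12 h and was called (log2 fold change 0.14 ± 0.05, adjusted p = 0.0152), but not without 0 h replicate 2 or without 12 h replicate 2. The 0 h and 12 h libraries of both genes were close without overlapping. *Foxd3*, a forkhead factor needed for epiblast cells, rose from 7.79 and 12.0 CPM at 0 h to 32.3, 30.5 and 28.4 CPM at 12 h, or 3.08-fold (log2 fold change 1.55 ± 0.18, adjusted p = 1.2e-06). *Dppa4* (0.91), *Dppa2* (0.84) and *Utf1* (0.78) rose with it. The exceptions were *Tdgf1*, *Lin28a*, *Cdh1* and *Epcam*, called lower at -0.80, -0.40, -0.33 and -0.28, the last not without 0 h replicate 2, and *Gdf3* and *Tcf7l1*, which did not pass.

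Formative markers split at 12 h. *Otx2*, the homeodomain factor that redirects OCT4 in the formative state, stood at 6.89 and 7.34 CPM at 0 h and 28.5, 29.0 and 29.4 CPM at 12 h, a 4.07-fold rise (log2 fold change 1.89 ± 0.09, adjusted p = 3.35e-11), and its mean reached 54.9 CPM at 24 h. *Fgf5*, the standard marker of the postimplantation epiblast, stood at 4.27 and 4.31 CPM at 0 h and 2.50, 3.26 and 4.24 CPM at 12 h and did not pass (log2 fold change -0.31 ± 0.21, adjusted p = 0.247), and *Pou3f1*, which encodes the POU factor OCT6, stood at 14.1 and 20.3 CPM at 0 h and 21.2, 18.3 and 18.1 CPM at 12 h and did not pass (log2 fold change 0.17 ± 0.15, adjusted p = 0.387). At 24 h the means of *Fgf5* and *Pou3f1* were 12.7 and 73.9 CPM, above all 5 earlier libraries of each. *Sox3*, a SOX factor of epiblast and neural plate, stood at 11.4 and 14.04 CPM at 0 h and 4.91, 4.89 and 3.69 CPM at 12 h (log2 fold change -1.32 ± 0.20, adjusted p = 3.55e-05), and *Wnt8a* (-2.23) and *Car14* (-2.20) fell. Over the list of 21 tested genes 5 were called higher, 9 lower and the median was -0.21, which was -0.35 without 0 h replicate 2, with 12 lower, and -0.06 without 0 h replicate 3, with 7 lower. In Nanog KO cells 16 were called higher and 1 lower, with a median of 0.53. The difference between the genotypes' changes was called negative, meaning a lower change in control cells, for 15 of the 21 and positive for 2. Over all 15117 tested genes it was negative for 1502 and positive for 1451.

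**Figure D3:**
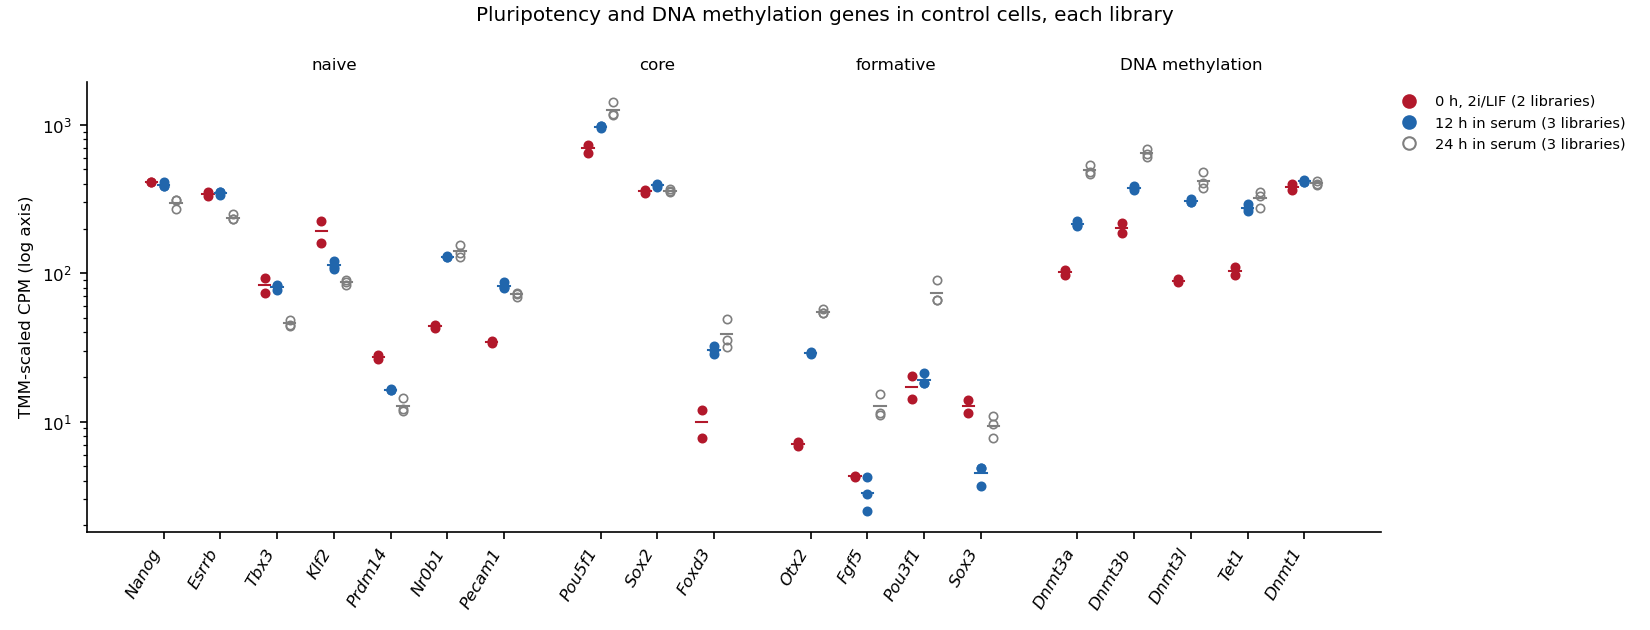
Values of pluripotency and DNA methylation genes in each control library, in TMM-scaled CPM on a log axis. Points are single libraries at 0 h (red), 12 h (blue) and 24 h (open grey), and short lines are group means. *Nanog* and *Esrrb* stayed level to 12 h and were lower at 24 h, *Otx2* rose at 12 h, and *Fgf5* and *Pou3f1* stood above their earlier values only at 24 h.

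The de novo DNA methyltransferases and 2 of the oxidases that start its removal rose. Naive ES cells in 2i have little DNA methylation, and the de novo methyltransferases restore it as the cells leave that state. *Dnmt3a*, one of these enzymes, stood at 97.8 and 105 CPM at 0 h and 213, 226 and 209 CPM at 12 h (log2 fold change 1.09 ± 0.06, adjusted p = 1.42e-10), and *Dnmt3b*, the other, stood at 186 and 217 CPM at 0 h and 364, 375 and 384 CPM at 12 h (log2 fold change 0.89 ± 0.09, adjusted p = 1.41e-07). *Dnmt3l*, their catalytically inactive cofactor, rose 3.44-fold from 90.9 and 87.7 CPM at 0 h to 318, 301 and 304 CPM at 12 h (log2 fold change 1.77 ± 0.07, adjusted p = 3.06e-12). Among the oxidases of methylcytosine, *Tet1* rose from 109.6 and 97.5 CPM at 0 h to 275, 261 and 292 CPM at 12 h (log2 fold change 1.41 ± 0.09, adjusted p = 1.41e-09) and *Tet2* by 0.59, while *Tet3* did not pass (-0.01). All 12 h libraries lay above all 0 h libraries for *Dnmt3a*, *Dnmt3b*, *Dnmt3l* and *Tet1*. The maintenance enzyme gene *Dnmt1* did not pass (log2 fold change 0.13 ± 0.06, adjusted p = 0.0752), and *Uhrf2* (-0.74) and the glycosylase gene *Tdg* (-0.45) were lower. Over the 15 tested enzymes and methyl-binding proteins 7 were higher and 2 lower, with a median of 0.16.

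Germline genes, many of which DNA methylation silences in somatic cells, rose. Of 19 tested members 14 were called higher and 1 lower, with a median of 0.40 and a summed level of 306 and 284 CPM at 0 h and 440, 384 and 432 CPM at 12 h. *Tex19.1*, which protects against transposons, stood at 39.8 and 36.8 CPM at 0 h and 106, 94.0 and 102 CPM at 12 h (log2 fold change 1.37 ± 0.07, adjusted p = 1.07e-10). *Mael* (0.90), *Piwil2* (0.80) and *Mov10l1* (0.65), which act in the piRNA pathway, *Tex11* (1.14) and the helicase gene *Ddx4* (0.69) rose too, and the synaptonemal gene *Sycp3* was the member called lower (-0.60). In Nanog KO cells 2 members were called higher and 5 lower, and the difference between genotypes was positive for 13 and negative for 0. The count of 14 fell to 8 without 0 h replicate 3 and to 9 without 12 h replicate 1, while the median stayed between 0.38 and 0.40 in those fits.

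Among 27 tested imprinted genes 7 were called higher and 12 lower. The largest fall was that of *Phlda2*, a growth-limiting gene of the placenta (43.1 and 44.5 CPM at 0 h and 7.60, 10.2 and 10.1 CPM at 12 h, log2 fold change -2.13 ± 0.12, adjusted p = 2.08e-10). The maternally expressed noncoding RNAs *Meg3* (-1.51) and *Rian* (-1.36), from one imprinted cluster, fell together, as did *Plagl1* (-1.24) and *Sgce* (-1.24). The antisense RNA *Kcnq1ot1* was called higher (log2 fold change 1.23 ± 0.16, adjusted p = 7.39e-06), although without known strand its reads and those of *Kcnq1* cannot be told apart. Genes of the 2-cell-like state, an expression program of the early embryo that a few ES cells show at any time, gave 7 called higher and 1 lower of 14, with *Zscan4d* at 1.06 and *Dppa2* at 0.84. That count was 4 without 0 h replicate 2 or without 12 h replicate 2, and the *Zscan4* and *Usp17l* genes are near-identical copies whose reads cannot be told apart with certainty.

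Glycolysis and the genes that low oxygen induces fell in nearly every member tested, the largest shares among the 44 lists. Cells sense oxygen through prolyl hydroxylases, which mark the HIF alpha subunits for destruction, and HIF binds the core ACGTG in the promoters of glycolytic and other genes. The core was present on either strand in 16 of 30 promoters of the glycolysis list (53.3%) and 13 of 25 of the hypoxia list (52%), against 19.6% of all 32851 promoters and 24.7% of those of tested genes. A match to this or any other motif searched here is not a shown site of binding. Shown in capitals is the core, which reads CACGT where it lies on the other strand and CACGTG where the strands overlap, in 4 genes with large falls, from RefSeq, build GRCm38.p6, at chr7:138909569-138909654 (-), chr7:46845619-46845803 (+), chr11:120949000-120949066 (+) and chrX:106186910-106187013 (+).
Bnip3: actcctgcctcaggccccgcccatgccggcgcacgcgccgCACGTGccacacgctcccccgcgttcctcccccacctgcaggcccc
Ldha: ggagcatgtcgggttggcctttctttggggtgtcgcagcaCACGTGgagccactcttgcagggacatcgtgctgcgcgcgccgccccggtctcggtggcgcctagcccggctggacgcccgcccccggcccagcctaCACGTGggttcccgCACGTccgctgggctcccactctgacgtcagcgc
Slc16a3: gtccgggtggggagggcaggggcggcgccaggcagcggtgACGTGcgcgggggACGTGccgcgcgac
Pgk1: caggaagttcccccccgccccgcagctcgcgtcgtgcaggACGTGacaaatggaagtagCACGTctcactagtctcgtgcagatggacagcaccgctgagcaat

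Of 19 tested glycolysis genes 18 were called lower and 0 higher, with a median of -1.29, and of 20 tested hypoxia-induced genes 19 were called lower and 0 higher, with a median of -1.34. The summed level of the glycolysis genes was 23578 and 22534 CPM at 0 h and 9752, 9848 and 9741 CPM at 12 h, and that of the hypoxia-induced genes was 2108 and 2171 CPM against 922, 901 and 912 CPM. Every 12 h library was far below either 0 h library in both sums. *Slc16a3*, the lactate exporter, stood at 381 and 402 CPM at 0 h and 34.6, 39.5 and 36.4 CPM at 12 h, a 10.6-fold fall (log2 fold change -3.38 ± 0.13, adjusted p = 6.87e-13). *Ldha*, which makes that lactate, stood at 2304 and 2034 CPM at 0 h and 537, 542 and 557 CPM at 12 h (log2 fold change -1.99 ± 0.06, adjusted p = 1.31e-14). *Pgk1*, phosphoglycerate kinase, stood at 1951 and 1642 CPM at 0 h and 643, 613 and 668 CPM at 12 h (log2 fold change -1.48 ± 0.07, adjusted p = 1.19e-11). The 3 libraries at 12 h were close together and far under those at 0 h for each. The glucose carriers *Slc2a1* (-1.91) and *Slc2a3* (-1.38) and the enzymes *Aldoc* (-2.30), *Tpi1* (-1.91) and *Pfkl* (-1.81) fell, and *Pfkm*, the muscle form of phosphofructokinase, was the member that did not pass (log2 fold change 0.16 ± 0.10, adjusted p = 0.213).

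*Bnip3*, a mitophagy receptor, stood at 207 and 189 CPM at 0 h and 19.9, 19.3 and 20.6 CPM at 12 h, a 9.93-fold fall (log2 fold change -3.25 ± 0.10, adjusted p = 2.52e-14). *Egln3*, itself a prolyl hydroxylase of HIF, stood at 49.1 and 50.2 CPM at 0 h and 7.94, 7.17 and 7.06 CPM at 12 h (log2 fold change -2.59 ± 0.13, adjusted p = 3.13e-11), and *Egln1* fell by 2.20. These 3 genes showed no overlap between the times. *Ankrd37* (-2.78), the peptide hormone gene *Adm* (-2.34) and the angiogenic factor gene *Vegfa* (-2.05) fell in the same range, and *Kdm3a*, a histone demethylase, was the exception (log2 fold change 0.17 ± 0.07, adjusted p = 0.0655). *Ndufa4l2*, which is outside the lists and encodes a mitochondrial protein that HIF induces, stood at 29.8 and 25.4 CPM at 0 h and 1.65, 0.978 and 1.41 CPM at 12 h (log2 fold change -3.61 ± 0.18, adjusted p = 3.44e-11). In Nanog KO cells 18 of the 19 glycolysis genes and all 20 hypoxia-induced genes were called lower, with medians of -1.36 and -1.73. Oxygen, medium volume and cell density are not given in the sources used here, and their part was not tested.

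Most genes of sterol and fatty acid synthesis fell. SREBP2 drives the sterol genes when cells lack cholesterol. Of 29 tested members 26 were called lower and 0 higher, with a median of -0.82. The sterol element TCACNCCAC, searched on both strands, was present in 1 of 21 promoters of the list (4.76%, against 1.24% of all promoters and 1.2% of those of tested genes). That promoter is the one of *Hmgcs1*, shown for its element in capitals, from RefSeq, build GRCm38.p6, at chr13:119690174-119690262 (+).
Hmgcs1: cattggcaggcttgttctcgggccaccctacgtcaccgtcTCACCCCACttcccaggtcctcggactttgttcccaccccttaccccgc

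*Hmgcs1*, the synthase at the head of the pathway, stood at 581 and 560.3 CPM at 0 h and 234, 239.8 and 232 CPM at 12 h (log2 fold change -1.27 ± 0.09, adjusted p = 4.77e-09). *Msmo1*, a late step, stood at 154 and 142 CPM at 0 h and 51.1, 56.5 and 56.0 CPM at 12 h (log2 fold change -1.42 ± 0.08, adjusted p = 1.49e-10), and *Insig1*, the feedback protein that retains SREBP in the endoplasmic reticulum, stood at 129.8 and 140.5 CPM at 0 h and 56.3, 57.0 and 62.5 CPM at 12 h (log2 fold change -1.19 ± 0.06, adjusted p = 2.15e-11). None of these had overlapping groups. The desaturases *Scd1* (-1.16) and *Scd2* (-1.46) fell, whereas *Fasn* and *Acaca*, which make the fatty acid chain, did not pass, at 0.06 and -0.01, nor did *Mvk* (0.00). In Nanog KO cells 24 members were lower and 2 higher.

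**Figure D4:**
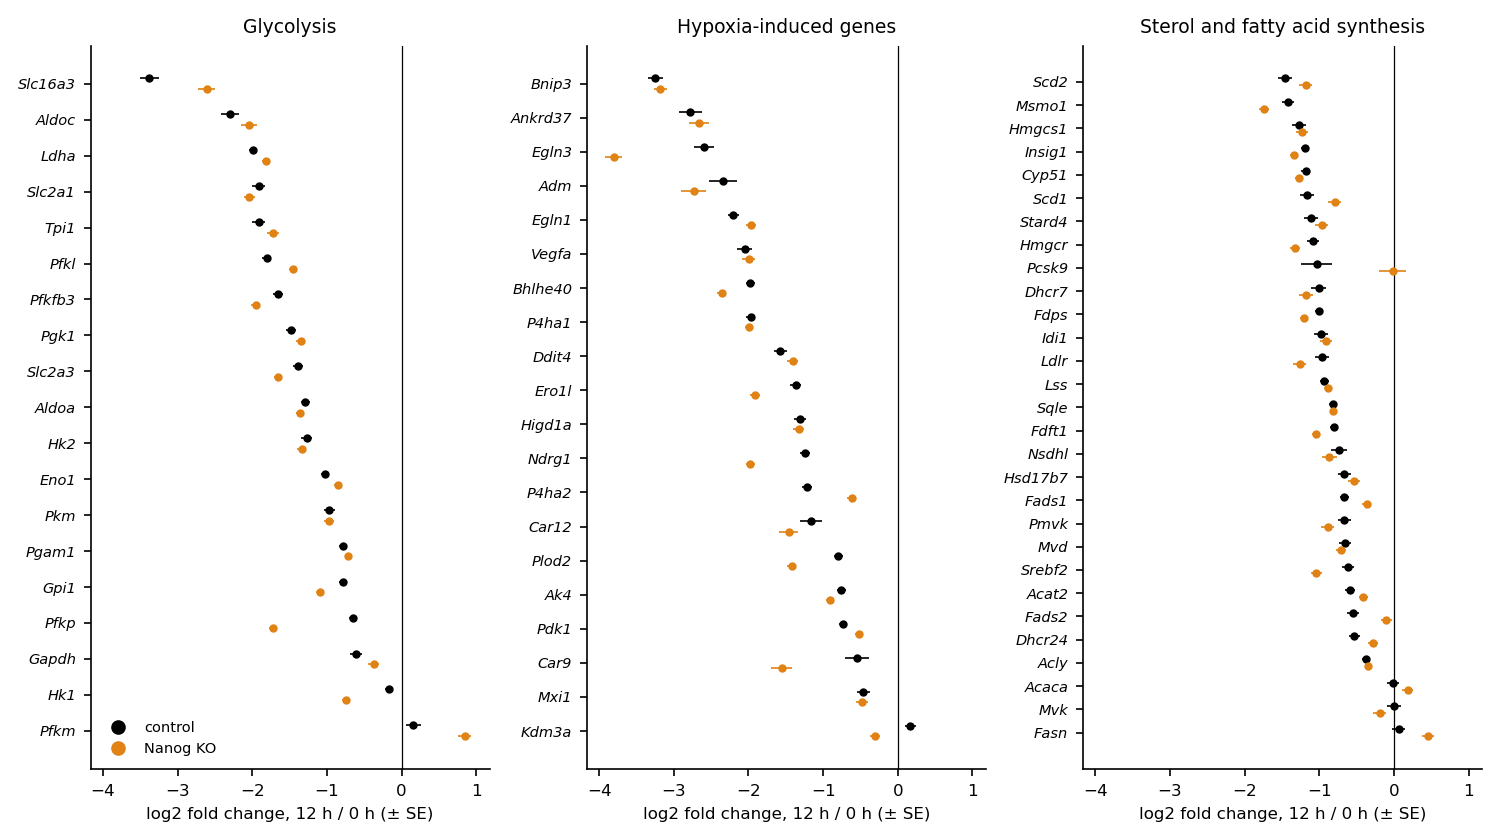
Log2 fold changes from 0 to 12 h, with bars of ± 1 SE, for every tested member of the glycolysis, hypoxia and sterol lists, in control cells (black) and Nanog KO cells (orange). The genotypes share no library. All control points but those of *Pfkm*, *Kdm3a*, *Fasn* and *Mvk* lie on the negative side, and *Slc16a3* and *Bnip3* lie furthest out at -3.38 and -3.25.

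The metallothionein and antioxidant list held 14 tested genes, of which *Mt1*, *Mt2* and *Slc30a1* respond to metal and the others are mostly NRF2 targets, and 10 were called higher and 1 lower, with a median of 0.50. *Nqo1*, a quinone reductase and the usual NRF2 reporter, stood at 10.8 and 12.4 CPM at 0 h and 64.1, 53.2 and 56.8 CPM at 12 h, a 4.999-fold rise (log2 fold change 2.23 ± 0.09, adjusted p = 1.34e-12). *Slc30a1*, a zinc exporter, stood at 9.10 and 12.2 CPM at 0 h and 35.7, 33.3 and 35.4 CPM at 12 h (log2 fold change 1.63 ± 0.10, adjusted p = 5.12e-10). The 12 h libraries stood clear of the 0 h libraries for both. The 2 subunits of the enzyme that starts glutathione synthesis, *Gclc* (0.88) and *Gclm* (0.90), the cystine carrier *Slc7a11* (0.93) and *Hmox1* (0.74) rose, while the metallothionein *Mt1* was lower (-0.60) and *Mt2* did not pass (-0.03). The metal response core TGCGCNC was found on either strand in 6 of 13 promoters of this list, among them *Slc30a1*, *Mt1* and *Mt2*, or 46.2% against 15.4% of all promoters and 26.1% of those of tested genes.

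Genes of the integrated stress response, which ATF4 drives when amino acids are short, mostly fell, 14 of 24 tested against 4 called higher. The VLDL receptor gene *Vldlr* fell most (12.1 and 16.9 CPM at 0 h and 1.05, 1.88 and 1.96 CPM at 12 h, log2 fold change -2.56 ± 0.20, adjusted p = 1.04e-08), followed by *Chac1* (-1.41) and *Cebpb* (log2 fold change -1.09 ± 0.31, adjusted p = 0.00822), the last no longer called without 0 h replicate 3, and the serine synthesis genes *Phgdh* (-0.92) and *Psat1* (-0.89) were lower. The members called higher were *Slc7a11*, *Sesn2*, *Slc7a5* and *Slc3a2*, of which 3 encode amino acid carriers. Without 0 h replicate 2 the list gave 2 higher and 10 lower. The call of *Slc3a2* (0.14) was lost when any of the 5 libraries was left out. The ATF4 element TGATGNAA was present on either strand in 6 of 22 promoters (27.3%, against 3.97% of all promoters and 2.27% of those of tested genes). Among 15 tested genes of glycine, threonine and methionine metabolism 4 were higher and 4 lower, and *Tdh*, the threonine dehydrogenase on which mouse ES cells depend, was called higher at 0.24, but not without 0 h replicate 3.

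The genes of protein synthesis and respiration changed little per gene. Of 79 tested cytosolic ribosomal protein genes 49 were called lower and 2 higher with a median of -0.24, and of 74 nuclear genes of the respiratory chain 44 were lower and 1 higher with a median of -0.23. Both counts rest on 1 library. Without 0 h replicate 2 they were 22 and 17, and after quantile normalization the ribosomal count was 16. *Rps2* (-0.69) and *Ndufv3* (-1.005) were the members of each list that fell most. The 13 mRNAs of the mitochondrial genome had 4 called higher and 1 lower. Their sum was 14263 and 14222 CPM at 0 h and 17278, 16326 and 17926 CPM at 12 h. The count of 4 was 1 without 0 h replicate 2 or without 12 h replicate 1, 2 without 0 h replicate 3 or 12 h replicate 3, and 8 in a fit of only the compared groups. *mt-Co3* was the member called lower (-0.67), a call lost on leaving out any library but 12 h replicate 3. As background, poly(A) selection captures these short-tailed RNAs unevenly.

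Of 16 tested genes of the primitive streak and mesoderm 5 were called higher and 8 lower. *T*, *Fgf8*, *Cdx1* and *Cdx2* fell as given above. *Nkx1-2*, a homeobox gene of the tail bud, stood at 26.3 and 29.9998 CPM at 0 h and 3.66, 5.63 and 3.91 CPM at 12 h (log2 fold change -2.45 ± 0.17, adjusted p = 2.77e-09). *Kdr*, the VEGF receptor of the early mesoderm, rose from 1.93 and 2.59 CPM at 0 h to 8.03, 7.50 and 8.58 CPM at 12 h (log2 fold change 1.48 ± 0.15, adjusted p = 3.09e-07), and the bHLH factor gene *Hand1* rose by 1.299. *Eomes*, another streak factor, did not pass (log2 fold change -0.32 ± 0.14, adjusted p = 0.0603).

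Hox genes, whose means at 0 h were between 0.377 and 28.0 CPM, gave 17 called lower and 1 higher of 29. *Hoxb1*, a hindbrain gene that retinoic acid induces, stood at 20.47 and 22.7 CPM at 0 h and 4.03, 5.54 and 4.02 CPM at 12 h (log2 fold change -2.04 ± 0.26, adjusted p = 3.97e-06), and *Hoxa2* (-1.49) and *Hoxb8* (-1.27) fell. With a pseudocount of 0.1 CPM 9 members were called lower. Of 17 genes of retinoid uptake and response 10 were lower and 2 higher. *Stra6*, the retinol uptake receptor, stood at 28.5 and 30.8 CPM at 0 h and 2.58, 3.59 and 2.72 CPM at 12 h (log2 fold change -2.96 ± 0.17, adjusted p = 2.26e-10). *Crabp2* (-1.84), which carries retinoic acid to its receptors, *Aldh1a2* (-1.68), which makes it, and *Cyp26a1* (-1.11), which degrades it, fell as well. *Aldh1a3* (0.87) and the receptor gene *Rarg* (0.59) were the 2 that rose.

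Neural progenitor genes were called in equal numbers, 5 higher and 5 lower of 19. *Sox1*, the earliest marker of neural plate cells, stood at 9.10 and 18.2 CPM at 0 h and 3.83, 4.16 and 4.35 CPM at 12 h (log2 fold change -1.45 ± 0.21, adjusted p = 2.46e-05), and *Nes* fell by 1.25. *Pax6* (0.92), *Neurod1* (0.87) and *Tubb3* (0.87) rose. Of 18 Notch genes 5 were higher and 6 lower, and the target *Hes1*, a repressor of neurogenesis, stood at 67.2 and 80.2 CPM at 0 h and 16.2, 19.2 and 18.8 CPM at 12 h (log2 fold change -1.97 ± 0.09, adjusted p = 1.26e-11), with *Nrarp* (-1.26) and the ligand gene *Dll3* (-1.25) also lower. *Notch1* did not pass (-0.05). Of 14 FGF ligands and receptors 9 were lower and 2 higher, the latter *Fgf4* (0.66), the main FGF that ES cells make, and *Fgfr2* (0.33), which was not called without 0 h replicate 2 or 12 h replicate 1. The number lower was 6 without 0 h replicate 3. With a mean of at least 5 CPM required, 7 members remained, 3 lower and 2 higher.

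Endoderm genes gave 6 higher and 5 lower of 21, near the background, with the uptake receptor gene *Lrp2* at log2 fold change 1.57 ± 0.08, adjusted p = 6.33e-11 and the forkhead factor gene *Foxa2* at log2 fold change -1.32 ± 0.21, adjusted p = 4.44e-05. The counts were 4 and 3 without 0 h replicate 3. *Gata6*, which founds the primitive endoderm, stood at 2.34 and 4.19 CPM at 0 h and 3.32, 2.45 and 1.52 CPM at 12 h and did not pass (log2 fold change -0.32 ± 0.18, adjusted p = 0.153). The summed level of the list was between 1532 and 1657 CPM at 0 h and between 1660 and 1748 CPM at 12 h. Trophoblast genes and simple keratins gave 8 lower and 3 higher of 17, with the keratin gene *Krt19* at 216 and 193 CPM at 0 h and 58.4, 63.4 and 58.9 CPM at 12 h (log2 fold change -1.75 ± 0.07, adjusted p = 1.49e-12) and the factor gene *Gata3* at 0.93. *Elf5*, a defining trophoblast factor, did not pass (log2 fold change 0.22 ± 0.17, adjusted p = 0.294).

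Of 17 tested cadherins, junction genes and genes of the epithelial to mesenchymal transition 11 were called lower and 3 higher, with a median of -0.34. The claudins *Cldn7* (50.03 and 45.5 CPM at 0 h and 19.5, 18.2 and 19.9 CPM at 12 h, log2 fold change -1.27 ± 0.10, adjusted p = 6.33e-09), *Cldn6* (-1.23) and *Cldn3* (-1.04), the catenin gene *Ctnnd2* (-1.18) and the tight junction gene *Ocln* (-1.13) fell most, and *Cdh2*, the cadherin of mesenchymal and neural cells, was lower too (-0.52). Of the members called higher, *Fn1* (0.57), *Cdh3* (0.47) and the splicing factor gene *Esrp1* (0.29), the last lost its call when any of the 5 libraries was left out. *Snai1* and *Zeb1*, repressors of epithelial genes, did not pass, at 0.06 and -0.20. Of 12 basement membrane genes 2 were higher, *Hspg2* (0.58) and *Nid1* (0.48), and 2 lower, *Lamb2* (-0.49) and *Lamb1* (-0.28).

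*Myc* rose, while among the called G1, replication and mitosis genes only *Ccnd2* changed by at least 2-fold. *Myc*, a growth regulator whose protein GSK3 and ERK act on, stood at 26.3 and 30.5 CPM at 0 h and 70.3, 69.5 and 69.2 CPM at 12 h, or 2.45-fold higher (log2 fold change 1.27 ± 0.07, adjusted p = 6.17e-11). *Mycn* did not pass (log2 fold change 0.02 ± 0.13, adjusted p = 0.898), and *Mycl* was lower (-0.74). Its antagonists *Mxd4* (0.85), *Mxd1* (0.77) and *Mga* (0.75) rose while *Mxi1*, of the same family as the *Mxd* genes, fell (-0.46), and 7 of 12 members of the network were higher in all and 2 lower. The cyclin D genes moved apart, *Ccnd2* at 47.7 and 60.3 CPM at 0 h and 18.1, 22.2 and 15.5 CPM at 12 h (log2 fold change -1.49 ± 0.16, adjusted p = 6.56e-07), *Ccnd1* at -0.53 and *Ccnd3* at 0.22, the last not called without 0 h replicate 2 or 12 h replicate 2, and *Ccne1* was higher at 0.52. Of 18 G1 genes 6 were higher and 4 lower. Of 24 replication genes 10 were called higher and 1 lower (8 and 3 without 0 h replicate 3), none by more than 0.58 (*Pole*), and of 18 mitosis genes 2 were higher and 8 lower, none beyond -0.57 (*Bub1*).

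Stress and chromatin lists had members called in both directions. For heat shock chaperones and Polycomb genes both shares were near or under the backgrounds of 22.6% and 24.5%. For endoplasmic reticulum chaperones the share called lower was under its background. Heat shock chaperones gave 1 higher and 2 lower of 14, with *Hspa8* at 0.19 and *Hsp90ab1* at -0.27. Leaving out 1 library gave between 1 and 2 higher and between 1 and 3 lower, and quantile normalization 4 higher and 1 lower. Endoplasmic reticulum chaperones gave 4 higher and 2 lower of 14, with *Herpud1* the largest change (-0.81). *Hspa5*, the main chaperone of that compartment, did not pass (-0.03). The number of chaperones of the endoplasmic reticulum called higher was 2 without 0 h replicate 3 and 8 after quantile normalization. The p53 targets gave 9 higher and 5 lower of 20, with the arrest gene *Cdkn1a* lower (-0.56) and *Trp53inp1* higher (0.63), and 5 were higher without 12 h replicate 1. Of 25 Polycomb genes 6 were higher and 5 lower, among them *Phf19* (0.90), a PRC2 accessory protein, and *Phc1* (0.65), while *Suz12* and *Rnf2*, core subunits, did not pass, at 0.14 and -0.01. Ribosome biogenesis gave 6 higher and 2 lower of 18, with a median of 0.02, and the number lower was 0 without 0 h replicate 2 or after quantile normalization and 1 without 12 h replicate 2 or 3. Of 8 *Lin28*, *Igf2bp* and *Hmga* genes 5 were lower, *Igf2bp2* most (-1.01), and 2 higher, a count that was 0 without 0 h replicate 2 or 12 h replicate 2 and 1 without 12 h replicate 1.

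Among the 15 largest rises were genes with no list of their own. *Megf10*, an engulfment receptor, stood at 1.03 and 1.08 CPM at 0 h and 14.4, 18.2 and 19.6 CPM at 12 h (log2 fold change 3.15 ± 0.14, adjusted p = 8.13e-12). *Exoc3l*, a relative of an exocyst subunit, stood at 7.03 and 5.51 CPM at 0 h and 42.6, 47.3 and 40.9 CPM at 12 h (log2 fold change 2.62 ± 0.18, adjusted p = 1.45e-09). Both were low in each 0 h library. The cilium gene *Rsph4a* (2.36), the cytochrome P450 gene *Cyp2b23* (2.26), the inflammasome gene *Nlrc4* (2.11), the collagen gene *Col14a1* (2.09), the endothelial receptor gene *Robo4* (2.06), the metalloprotease gene *Mep1b* (2.01) and the semaphorin gene *Sema5a* (1.94) also rose. In 14 of the 15 the 12 h libraries lay above the 0 h libraries, against 30.7% of all tested genes. Picking large rises in these same libraries makes that likely. *Duxbl2* (log2 fold change 1.96 ± 0.61, adjusted p = 0.0134), one of several near-identical copies, was no longer called without 0 h replicate 2, and *Rsc1a1* (8.20 and 0 CPM at 0 h and 12.4, 7.01 and 13.3 CPM at 12 h) was listed at 0 in 1 library and no longer called without 0 h replicate 3.

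The 15 largest falls were picked in these same libraries, which makes a lack of overlap likely. All 15 had every 12 h library below both 0 h libraries, against 32.3% of all tested genes. Those not yet given were *Stc2*, which encodes the hormone stanniocalcin 2 (24.8 and 28.3 CPM at 0 h and 1.99, 3.02 and 1.74 CPM at 12 h, log2 fold change -3.10 ± 0.14, adjusted p = 7.63e-12), the forkhead gene *Foxb1* (log2 fold change -2.69 ± 0.19, adjusted p = 2.21e-09) and *Btg3*. *Btg3*, an antiproliferative gene, stood at 6.202 and 58.5 CPM at 0 h and 2.61, 1.79 and 0.652 CPM at 12 h, so its 0 h libraries were far apart, and its call (log2 fold change -3.02 ± 0.79, adjusted p = 0.00427) was lost without 0 h replicate 3, at an adjusted p of 0.168.

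Ranked by change in CPM, which follows gene length and so weighs genes by their share of reads, the losses were led by glycolysis. *Pkm*, pyruvate kinase, fell by 2259.6 CPM (4727 and 4524 CPM at 0 h and 2356, 2407 and 2336 CPM at 12 h). *Ldha* fell by 1624 CPM and *Slc2a3* fell by 1479.9 CPM, and *Aldoa*, *Slc2a1*, *Pgk1* and *Eno1b* were among the first 10. *Eno1b* is a near copy of *Eno1*, and reads of the pair may be shared between them. *Eef1a1*, the elongation factor, fell by 1842.2 CPM, from 13165 and 11911 CPM at 0 h to 10914, 10456 and 10718 CPM at 12 h, a change (log2 fold change -0.23 ± 0.07, adjusted p = 0.0139) that was no longer called without 0 h replicate 2. *Eef2* (log2 fold change -0.35 ± 0.07, adjusted p = 0.000292) and *Hsp90ab1* (log2 fold change -0.27 ± 0.06, adjusted p = 0.00147) completed the list. The gains were led by *mt-Co1* (log2 fold change 0.30 ± 0.11, adjusted p = 0.0365), a call that was lost when any of the 5 libraries was left out, and *mt-Nd1* (log2 fold change 0.53 ± 0.11, adjusted p = 0.00064). *Fn1*, fibronectin, gained 440 CPM (846 and 997 CPM at 0 h and 1331, 1417 and 1338 CPM at 12 h), and the sialic acid hydroxylase gene *Cmah* (0.72), the dynein gene *Dync1h1* (0.94), *Trim28* (0.27), a silencer of endogenous retroviruses, *Pou5f1*, *Hspa8* and *Ubb* (0.21), the last not called without 0 h replicate 3, followed. *Lars2* (log2 fold change 1.14 ± 0.45, adjusted p = 0.0451) was among them, and its call was lost on leaving out either 0 h library or 12 h replicate 1 or 3.

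The same change of medium in Nanog KO cells gave 3887 genes called higher (25.7%) and 3952 lower (26.1%). Its means come from other libraries than the control change, but the variance behind both sets of calls was estimated over all 17 libraries. Of the control calls, 2183 were higher and 2304 lower in both genotypes, while 141 were higher in control and lower in Nanog KO cells and 169 the reverse. Of 301 genes that rose at least 2-fold in control cells 283 had a positive log2 fold change in Nanog KO cells, and of 440 that fell at least 2-fold 390 had a negative one. The difference between the 2 changes, control minus Nanog KO, was called for 19.5% of tested genes, positive for 1451 and negative for 1502. Among the at least 2-fold rises in control cells it was positive for 122 and negative for 11, and among the at least 2-fold falls it was negative for 204 and positive for 15. Both signs follow in part from choosing genes by a large control change.

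The difference was called negative for many Wnt targets, though not for this list alone. In Nanog KO cells 7 of the 20 were called higher and 5 lower with a median of 0.14. The difference was negative for 12 and positive for 0, against 1502 and 1451 of all 15117 tested genes. It was negative for 8 and positive for 1 of 14 FGF genes, and for 10 and 2 of 21 endoderm genes. For heat shock chaperones these numbers were 7 and 1 of 14, and for Notch genes 8 and 2 of 18. Germline genes went the other way, as given above. *Axin2* rose by 0.82 in Nanog KO cells and fell in control cells (difference -1.62 ± 0.11, adjusted p = 4.33e-08), and *Lef1* differed by -1.57 (adjusted p = 6.91e-07). For *T* the change in Nanog KO cells was -0.19, from a 0 h mean of 1.76 CPM against 61.0 CPM in control cells (difference -2.52, adjusted p = 1.42e-06). *Sp5* fell in Nanog KO cells too, from a 0 h mean of 2.18 CPM to 0.314 CPM at 12 h (log2 fold change -1.255, adjusted p = 2.26e-05). The difference of *Sp5* (-2.03 ± 0.28, adjusted p = 6.82e-05) was not called with a pseudocount of 0.1 CPM, edgeR or DESeq2. What part low Nanog KO values at 0 h have in the differences was not tested. The difference of *Btg3* was lost on leaving out any one of 8 of the 11 libraries. The 10 most negative differences among genes called in control cells, *Btg3*, *Fgf8*, *Foxb1*, *T*, *Nkx1-2*, *Stra6*, *Wnt8a*, *Pomc*, *Vrtn* and *Car14*, all had Nanog KO 0 h means under 10 CPM, between 0.0493 and 9.10 CPM, where the control means were between 7.30 and 61.0 CPM.

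The 10 most positive differences were *Col14a1*, *Aire*, *Dnmt3l*, *Rps15a-ps7*, *Igfbp5*, *Nlrc4*, *Cd37*, *Otx2*, *Megf10* and *Robo2*. *Rps15a-ps7* is a pseudogene whose reads may come from *Rps15a*, and its difference was lost on leaving out any one of 7 of the 11 libraries. *Dnmt3l* rose by 1.77 in control cells and had a log2 fold change of -0.11 in Nanog KO cells, which did not pass (difference 1.88 ± 0.10, adjusted p = 2.72e-09). Its Nanog KO means were 849 CPM at 0 h and 789 CPM at 12 h. *Otx2* rose by 1.89 in control cells and by 0.33 in Nanog KO cells, where the means were 44.5 and 56.3 CPM (difference adjusted p = 2.46e-07). *Aire*, a regulator of self-antigen expression, fell in both, by 0.71 in control cells and by 2.70 in Nanog KO cells. *Pou3f1* went the other way from *Otx2*, with 0.17 in control cells and 2.21 in Nanog KO cells (difference -2.04 ± 0.21, adjusted p = 2.23e-06).

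**Figure D5:**
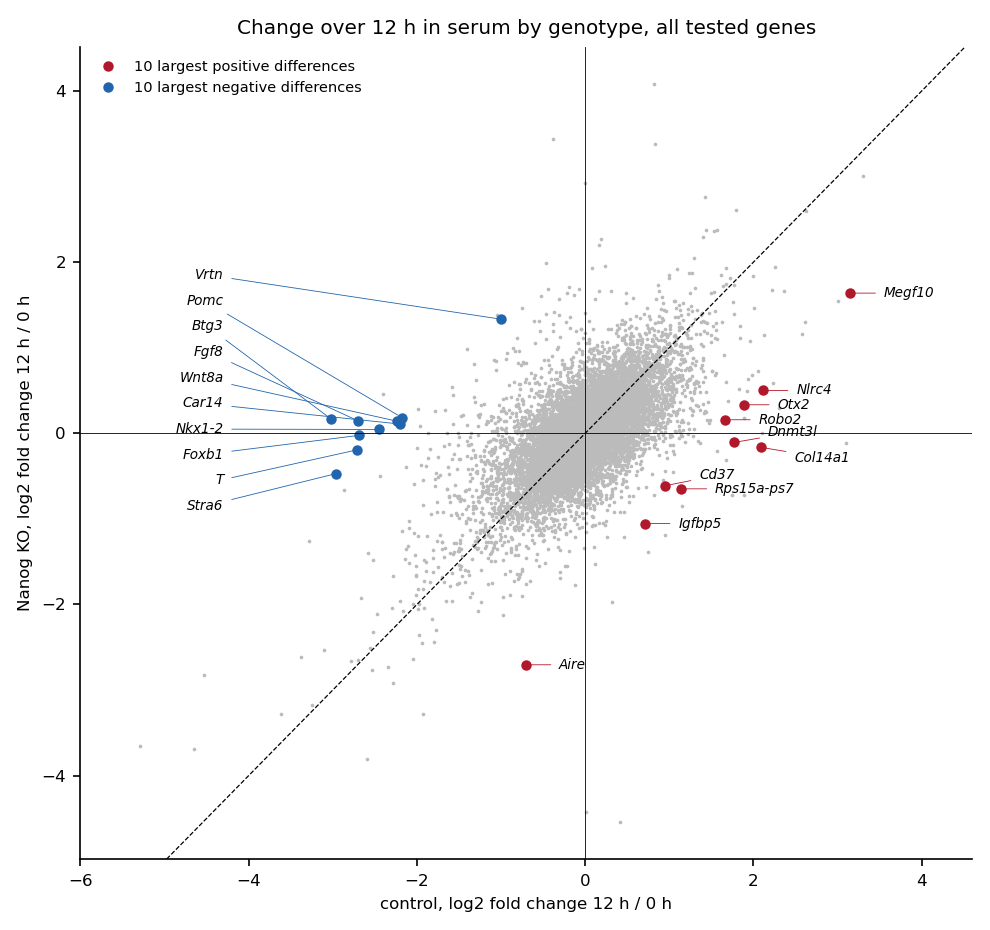
Log2 fold change from 0 to 12 h in control cells (x axis) against that in Nanog KO cells (y axis), 1 point per tested gene, with the line of equal change dashed. Coloured points are the 10 most positive (red) and 10 most negative (blue) differences among genes called in control cells. *T*, *Fgf8* and *Foxb1* lie far to the left near a Nanog KO change of 0, and *Aire* lies lowest among the coloured genes at -2.70.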

How the data were processed

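Gene-level values came from 1 deposited table. By the labels and methods, single reads from poly(A) libraries were demultiplexed with CASAVA 1.8.2, trimmed with cutadapt 1.3 (reads under 30 bases dropped), and counted with RSEM (1.2.3 in the submitters' processing notes) against GRCm38, and the authors deposited CPM scaled by edgeR's TMM method, a signal per gene that is not divided by gene length. The methods also name ComBat. Every value, though, was a whole number of reads times 1 factor per library, within 0.001 reads (100% of values in each library). The values used here therefore show no adjustment of single genes by batch. Strand use is not given in the sources used here, so overlapping, antisense and near-identical genes may share reads.

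Tests were limited to the 15117 genes that reached 1 CPM in 3 or more libraries. limma 3.58.1 (R 4.3.3) with a variance trend was fitted to log2(CPM + 1) over all 17 libraries with 1 coefficient per genotype and time, two-sided, with Benjamini-Hochberg adjustment and genes called where the adjusted p was below 0.05. The pseudocount understates changes of low genes. Replicate numbers 2 and 3 occur at both times, but same-numbered libraries did not deviate together (correlations -0.11 and -0.11). Alternatives included edgeR 4.0.16 and DESeq2 1.42.0 on the recovered reads and leaving out each library. The test was checked on simulated data. CPM floors from 3 reads cover counting error only.

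The members and lists were chosen with earlier results of these data known. Genes named were the 15 largest rises and falls (log2) and the 10 largest gains and losses in CPM among called genes with at least 5 CPM in every library of the higher group, predicted and RIKEN genes left out, up to 6 called members per list with the largest change, members that did not pass, the 10 largest differences between genotypes in each direction, and *Nanog*, *Pou5f1*, *Sox2* and *Pou3f1*. A few further called members, such as *Axin2*, *Dusp6*, *Lef1*, *Prdm14*, *Jun* and *Cyp26a1*, were named after their values were seen. Of the tested genes 14999 matched GENCODE M21. RefSeq promoters run from 250 bases before to 50 after a gene start, and only bases before the start are printed. A few genes that this rule would name are not reported here.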

Additional observations from a re-analysis of the deposited data

Results flagged for a closer look

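Among genes called in control cells, the 20 with the largest tested difference between the control change and the Nanog KO change over 12 h stood out because their changes differed between genotypes, by limma's interaction contrast with p-values adjusted by the Benjamini-Hochberg method across the 15117 genes. Each is given as the difference in log2 fold change, control minus Nanog KO, with the control and Nanog KO changes in brackets. They were picked as the extremes of 15117 genes, so their sizes are likely to be overestimates.

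The positive differences, with adjusted p-values from 2.72e-09 to 0.0386, were those of *Col14a1* 2.25 (2.09 and -0.16), *Aire* 2.00 (-0.71 and -2.70), *Dnmt3l* 1.88 (1.77 and -0.11), *Rps15a-ps7* 1.79 (1.14 and -0.65), *Igfbp5* 1.76 (0.71 and -1.05). The others were those of *Nlrc4* 1.61 (2.11 and 0.50), *Cd37* 1.57 (0.96 and -0.61), *Otx2* 1.55 (1.89 and 0.33), *Megf10* 1.51 (3.15 and 1.64) and *Robo2* 1.502 (1.66 and 0.16). *Aire* fell in both genotypes and fell less in control cells.

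The negative differences, with adjusted p-values from 6.2e-08 to 0.0413, were those of *Btg3* -3.19 (-3.02 and 0.17), *Fgf8* -2.86 (-2.71 and 0.15), *Foxb1* -2.66 (-2.69 and -0.02), *T* -2.52 (-2.71 and -0.19), *Nkx1-2* -2.49 (-2.45 and 0.05). The others were those of *Stra6* -2.49 (-2.96 and -0.47), *Wnt8a* -2.37 (-2.23 and 0.14), *Pomc* -2.36 (-2.18 and 0.18), *Vrtn* -2.33 (-0.996 and 1.33) and *Car14* -2.31 (-2.20 and 0.11). In all 10 the Nanog KO mean at 0 h was under 10 CPM, and in 7 it was under 2 CPM. *Vrtn* rose in Nanog KO cells and fell in control cells.

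The differences of *Btg3* and *Rps15a-ps7* were lost on leaving out 1 library in 8 and 7 of 11 cases. That of *Megf10* was not called with a pseudocount of 0.1 CPM, edgeR or DESeq2, and that of *Foxb1* was not called with edgeR or DESeq2. Groups of 2 and 3 libraries were too small for a test of single outlying libraries.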

How the results depend on the processing

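The counts of called genes over all tested genes moved by over 1.5 times only when a change of at least 2-fold was also asked for, which left 741 genes in control cells (301 higher, 440 lower), 581 in Nanog KO cells (275 higher, 306 lower) and 340 for the difference between genotypes (116 positive, 224 negative). Otherwise the control count of 7118 stayed between 5828 (a mean of 5 CPM or more required) and 7197 (no filter on low values), with 7126 in edgeR and 6724 in DESeq2, and was between 5883 and 6455 when 1 library was left out. No call changed direction except 1 after quantile normalization, and the median over all genes moved by no more than 0.02. With the replicate number as a block 6730 genes were called, 6640 of them shared with the fit without it. Only 2 pairs share a number and the same-numbered libraries correlated at -0.11 and -0.11, so the numbers were not taken as pairing. The crossed values, 0.11 and 0.11, are the same numbers with the sign turned, since 0 h has only 2 libraries, and add no evidence. The crossed pairing was not fitted.

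Of 274 changes of single named genes 7 were not called in DESeq2, 4 in edgeR, 8 with the block, 8 with only the compared libraries, 9 after quantile normalization, 11 without the variance trend and 1 with a pseudocount of 0.1 CPM. Leaving out each of the 5 libraries in turn, counted once per gene and library, lost 65 such calls and kept 1305. Of 36 named differences between genotypes 6 were not called in DESeq2 and 5 in edgeR. Numbers of list members called higher or lower, counted once per library left out, moved by over 1.5 times in 51 cases and not in 389. After quantile normalization 12 moved and 76 did not. List medians, again counted once per library left out, moved by more than the spread between libraries in 63 cases and not in 157. The precision of the control change was limited by the 2 libraries at 0 h, which differed by more than counting allows, and low genes were limited by the depth of 12 h replicate 3, where 3 reads are 0.326 CPM.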
